A study of Mus musculus with 8 samples.

Results

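The 10 genes described are part of the major histocompatibility complex (MHC) class I system, measured in mouse retina: 8 heavy chains (H2-K1, H2-D1, H2-Q4, H2-Q6, H2-Q7, H2-T22, H2-T23 and H2-M3), their light chain B2m, and Nlrc5, the activator of their transcription. They were chosen by gene symbol as class I chains and activator that differ between the groups of this series, so their values are given as a description, without a test. All 10 are among the 24860 gene symbols measured. Total RNA of 8 retina libraries was sequenced: 4 from retinas given AAV2-shCX36, an adeno-associated virus vector carrying a short hairpin RNA aimed at connexin 36 (gene Gjd2), and 4 given AAV2-scramble, the vector with a control hairpin. The labels give retina as tissue and retinal ganglion cells as cell type for every library. They name no strain, sex, age, optic nerve injury, promoter, interval after the vector or sorting step, and both groups carry an AAV2 vector. They also do not say which mice or how many eyes went into a library, so the spread reported is between libraries and may be partly technical.

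Class I molecules display short peptides from inside the cell to CD8 T cells. A polymorphic heavy chain folds with the light chain beta-2-microglobulin around a peptide, and a complex lacking either partner is unstable. H2-K1 and H2-D1 encode the classical chains, while the Q, T and M regions encode non-classical ones with narrower tasks. Nlrc5 does not bind DNA itself. It joins RFX, CREB/ATF and NF-Y factors on the conserved SXY module of class I promoters, and interferon acts on the same promoters through IRF and STAT factors. In the healthy central nervous system, neurons carry little class I, and microglia and endothelium carry more.

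Gjd2, the target of the hairpin, was read first as a check of the labels. It stood at 38.7, 35.9, 17.4 and 18.2 FPKM in AAV2-scramble libraries 1 to 4 and at 17.0, 14.0, 14.6 and 16.6 FPKM in AAV2-shCX36 libraries 1 to 4. FPKM is mapped fragments scaled to transcript length and library size. No value of one group reached the other, with a log2 difference of -0.70 and a two-sided exact permutation p of 0.0286, the smallest that 70 relabellings allow. In the limma fit over all genes Gjd2 was not past the threshold (SE 0.25, adjusted p = 0.148). The difference was -0.19 without AAV2-scramble 1 and 2 (exact permutation p = 0.133, in a design that cannot go below 0.0667). Leaving out any 1 AAV2-shCX36 library also took the permutation p above 0.05, with log2 differences of -0.74 to -0.65 and exact permutation p of 0.114 to 0.143. All 8 ganglion cell markers were present, with a summed level of 1356 to 2343 FPKM in controls and 2262 to 2436 in AAV2-shCX36, and none was past the threshold in limma. The libraries also hold RNA of other retinal cells: rod markers summed to 1158 to 1724 FPKM in controls and 748 to 1086 in AAV2-shCX36, and Müller glia markers to 436 to 736 and 202 to 320. Of each of these lists 4 of 6 genes were lower in limma (2.52% of genes tested were), and their part in the class I difference was not tested. Depth, read from the spacing of low values, was about 35900000 to 39000000 fragments a library, at which 1 fragment on a 1 kb transcript is worth 0.0257 to 0.0279 FPKM.

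The heavy chain genes lie on chromosome 17 (GRCm38, GENCODE M21). H2-K1 is at chr17:33996017-34000347 on the minus strand, H2-D1 at chr17:35262730-35267499 on the plus strand, and H2-Q4 (chr17:35379617-35385290), H2-Q6 (chr17:35424850-35430055) and H2-Q7 (chr17:35439155-35443773) follow on the plus strand. H2-T23 (chr17:36029773-36032855) and H2-T22 (chr17:36037128-36042747) are on the minus strand, and H2-M3 (chr17:37270220-37274484) is on the plus strand. B2m is at chr2:122147686-122153083 and Nlrc5 at chr8:94434356-94527272, both on the plus strand. All 10 are annotated as protein-coding.

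RefSeq promoters (GRCm38.p6, 250 bases before to 50 after a start site) were found for 9 of the 10 members, all but Nlrc5. Stretches of 6 are printed 5′ to 3′ on the gene's strand, because these are the genes with the highest levels (H2-D1, H2-K1, B2m), the largest difference on the log2(FPKM + 1) scale (H2-Q4), the smallest (H2-M3), and the steadiest control level (H2-T22). Capitals mark matches to the NF-kB consensus, to the IRF element GAANNGAAA or the core of the interferon-stimulated response element (ISRE), to the X2 core TGACG and to the Y box CCAAT, each on either strand.
H2-K1: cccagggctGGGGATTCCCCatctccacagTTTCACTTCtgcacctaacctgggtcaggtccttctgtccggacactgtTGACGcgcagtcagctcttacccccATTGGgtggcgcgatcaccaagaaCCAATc
H2-D1: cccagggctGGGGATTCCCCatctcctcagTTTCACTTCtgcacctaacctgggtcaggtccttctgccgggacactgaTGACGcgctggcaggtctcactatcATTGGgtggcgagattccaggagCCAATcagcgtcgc
H2-Q4: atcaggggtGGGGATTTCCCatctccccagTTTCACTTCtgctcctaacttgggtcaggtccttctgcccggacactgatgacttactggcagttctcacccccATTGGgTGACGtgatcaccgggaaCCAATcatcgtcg
H2-T22: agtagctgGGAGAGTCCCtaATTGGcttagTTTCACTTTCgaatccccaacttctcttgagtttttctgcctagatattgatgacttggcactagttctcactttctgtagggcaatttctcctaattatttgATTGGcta
H2-M3: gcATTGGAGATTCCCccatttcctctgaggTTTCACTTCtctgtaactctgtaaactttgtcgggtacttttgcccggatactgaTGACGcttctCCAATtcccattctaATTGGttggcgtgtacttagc
B2m: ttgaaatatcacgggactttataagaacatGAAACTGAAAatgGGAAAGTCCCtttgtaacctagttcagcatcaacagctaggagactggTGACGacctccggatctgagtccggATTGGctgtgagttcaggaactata

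These stretches are chr17:34000334-34000467 (H2-K1, minus strand), chr17:35262914-35263054 (H2-D1, plus), chr17:35379434-35379574 (H2-Q4, plus), chr17:36042823-36042963 (H2-T22, minus), chr17:37270103-37270233 (H2-M3, plus) and chr2:122147518-122147658 (B2m, plus). The Y box letters occurred in 9 of the 9 member promoters and in 37.9% of the 27025 promoters of the same length. The NF-kB consensus occurred in 8 of 9, all but H2-T23, against 4.35% of all promoters. The IRF element GAANNGAAA occurred in 6 (H2-K1, H2-D1, H2-Q4, H2-Q6, H2-Q7 and H2-M3) against 7.56%, and was added to the search after the promoters had been read. The ISRE core occurred in the other 3, H2-T22, H2-T23 and B2m, against 3.49%. The X2 core TGACG occurred in 7 against 21.0%, and followed by ATTGG at a distance of 10 to 40 bases on the same strand in 5 (H2-K1, H2-D1, H2-Q7, H2-M3 and B2m) against 1.04%. The STAT site TTCNNNGAA occurred in H2-M3 alone among the 9, against 8.47% of all promoters. Promoters of duplicated genes share descent, so the heavy chains are not independent cases, and a match of letters does not show a bound site. The map of matches shows the same order in most heavy chains, from the NF-kB letters through the IRF letters to the Y box.

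**Figure D1:**
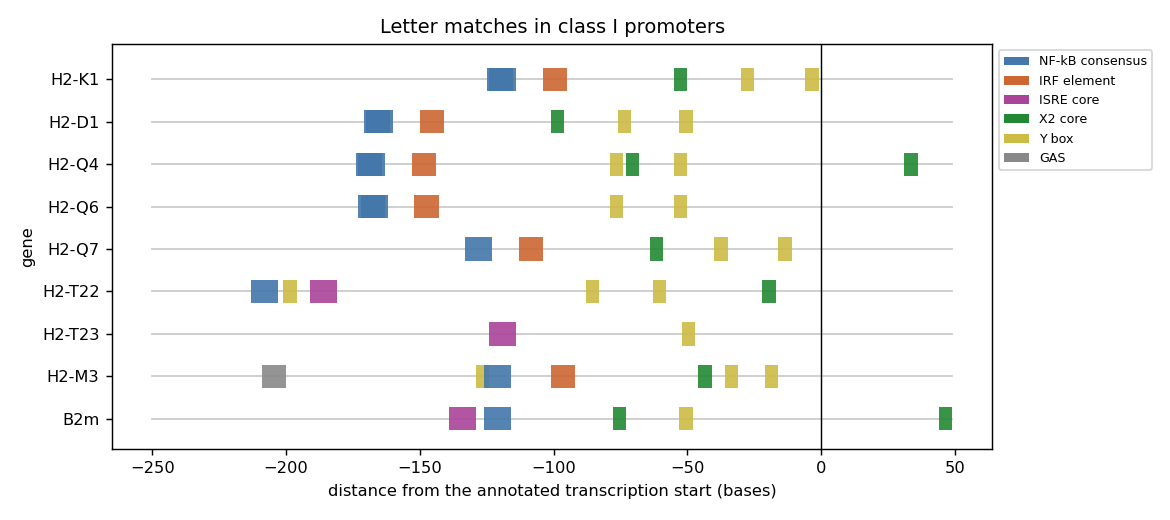
Positions of letter matches in the 9 member promoters, in bases from the annotated transcription start (x axis), 1 row per gene and 1 colour per motif. The NF-kB match is present in 8 of 9 rows and the Y box in 9 of 9, and H2-T22, H2-T23 and B2m carry the ISRE core in place of the IRF element.

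The classical heavy chains were the most abundant heavy chains in every library. H2-D1 stood at 89.7, 99.0, 70.3 and 50.8 FPKM in AAV2-scramble 1 to 4 and at 447, 335, 389 and 288 FPKM in AAV2-shCX36 1 to 4. The lowest AAV2-shCX36 library was 2.91 times the highest control. Group means were 77.4 ± 21.4 and 365 ± 68.4 FPKM (SD, n = 4 each), 4.71-fold apart, with a log2 difference of 2.25 ± 0.21 (SE) on the log2(FPKM + 1) scale.

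H2-K1 stood at 34.2, 40.3, 22 and 10.6 FPKM in AAV2-scramble 1 to 4 and at 323, 232, 272 and 194 FPKM in AAV2-shCX36 1 to 4. Its gap was wider than that of H2-D1, with the lowest AAV2-shCX36 library at 4.82 times the highest control. The means were 26.8 ± 13.2 and 255 ± 55.1 FPKM (SD, n = 4 each), 9.54-fold apart (log2 difference 3.34 ± 0.36 SE).

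B2m, which the heavy chains need for a stable complex, overlapped the classical chains in level. It stood at 159, 144, 89.1 and 32.9 FPKM in AAV2-scramble 1 to 4 and at 463, 298, 349 and 280 FPKM in AAV2-shCX36 1 to 4. Groups did not overlap, but the closest libraries were 1.76 times apart and control library 4 stood far below control library 1. The means were 106 ± 57.6 and 347 ± 82.3 FPKM (SD, n = 4 each), a ratio of 3.26 and a log2 difference of 1.90 ± 0.44 (SE).

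Of the non-classical chains, H2-Q4 had the highest level in AAV2-shCX36. It stood at 8.63, 12.1, 5.50 and 2.51 FPKM in AAV2-scramble 1 to 4 and at 107, 77.0, 92.4 and 58.6 FPKM in AAV2-shCX36 1 to 4. The means were 7.19 ± 4.13 and 83.8 ± 20.8 FPKM (SD, n = 4 each), 11.7-fold apart (log2 3.50 ± 0.37 SE). This was the largest difference of the 10 on the log2(FPKM + 1) scale, with H2-K1 (3.34 ± 0.36 SE) and Nlrc5 (3.31 ± 0.20 SE) close behind. That rank was not steady. On the same scale without AAV2-scramble 3 and 4 the H2-Q4 difference was 2.88, below Nlrc5. With a pseudocount of 0.1 it was 3.70, below Nlrc5, H2-Q6 and H2-Q7. With 0.5 (3.61) or after rescaling to TPM (3.67) it was below Nlrc5 (4.05 and 4.59). H2-T23 encodes Qa-1, which shows leader peptides of other class I chains to the CD94/NKG2 receptors of natural killer cells. Its levels were 12.9, 15.8, 6.69 and 4.70 FPKM in controls 1 to 4 and 82.1, 59.3, 56.9 and 40.9 FPKM in AAV2-shCX36 1 to 4, with a log2 difference of 2.55 ± 0.34 (SE). H2-T23 and H2-Q4 traded places: H2-T23 was the higher in 4 of 4 control libraries and H2-Q4 in 4 of 4 AAV2-shCX36 libraries.

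H2-T22, a chain recognised by gamma-delta T cells, was the steadiest member in controls. It stood at 4.68, 4.82, 3.98 and 4.30 FPKM in AAV2-scramble 1 to 4, a coefficient of variation of 8.57%, against 49.5% for H2-K1 and 54.1% for B2m in the same libraries. In AAV2-shCX36 1 to 4 it stood at 27.1, 24.7, 27.4 and 16.0 FPKM, a ratio of means of 5.36 and a log2 difference of 2.16 ± 0.16 (SE). H2-M3, which presents N-formylated peptides, had the smallest difference. Its levels of 1.44, 1.72, 0.699 and 0.850 FPKM in controls and 3.92, 3.76, 3.93 and 2.04 FPKM in AAV2-shCX36 came closest to overlap, with the lowest AAV2-shCX36 library 1.19 times the highest control (log2 difference 1.02 ± 0.21 SE).

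H2-Q6 and H2-Q7, which encode Qa-2 antigens, were near the limit of detection in controls. H2-Q6 stood at 0.121, 0.0767, 0.218 and 0.0236 FPKM in AAV2-scramble 1 to 4 and at 3.09, 3.03, 3.70 and 1.94 FPKM in AAV2-shCX36 1 to 4. H2-Q7 stood at 0.103, 0.345, 0.0687 and 0.0167 FPKM in controls and at 3.96, 2.32, 4.47 and 3.15 FPKM in AAV2-shCX36. The control values were whole multiples of a common step within 0.06 of that step. Taking the step as 1 fragment puts them at 5, 3, 9 and 1 fragments for H2-Q6 and 6, 19, 4 and 1 for H2-Q7. This implies lengths of 1089 and 1534 bases. The longest coding transcripts in GENCODE M21 are 2085 and 1497 bases, and the longer one would make the H2-Q6 counts larger. With the step as 1 fragment, the ratios of means, 26.8 and 26.1, rest on 18 and 30 control fragments in all, against 480 and 802 in AAV2-shCX36. On the log2(FPKM + 1) scale, which compresses low values, the differences were 1.81 ± 0.15 and 1.97 ± 0.17 (SE), and with a pseudocount of 0.1 they were 3.91 and 4.08.

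Nlrc5 had the largest ratio of means, 62.5. It stood at 0.166, 0.352, 0.0767 and 0.107 FPKM in AAV2-scramble 1 to 4 and at 11.7, 10.4, 15.0 and 6.81 FPKM in AAV2-shCX36 1 to 4. The lowest AAV2-shCX36 library was 19.3 times the highest control, the widest gap of the 10 members. The means were 0.176 ± 0.123 and 11 ± 3.38 FPKM (SD, n = 4 each; log2 difference 3.31 ± 0.20 SE, or 5.37 with a pseudocount of 0.1). Its longest coding transcript of 7578 bases would make the control values about 48, 96, 22 and 32 fragments, so Nlrc5 was detected in every control library.

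**Figure D2:**
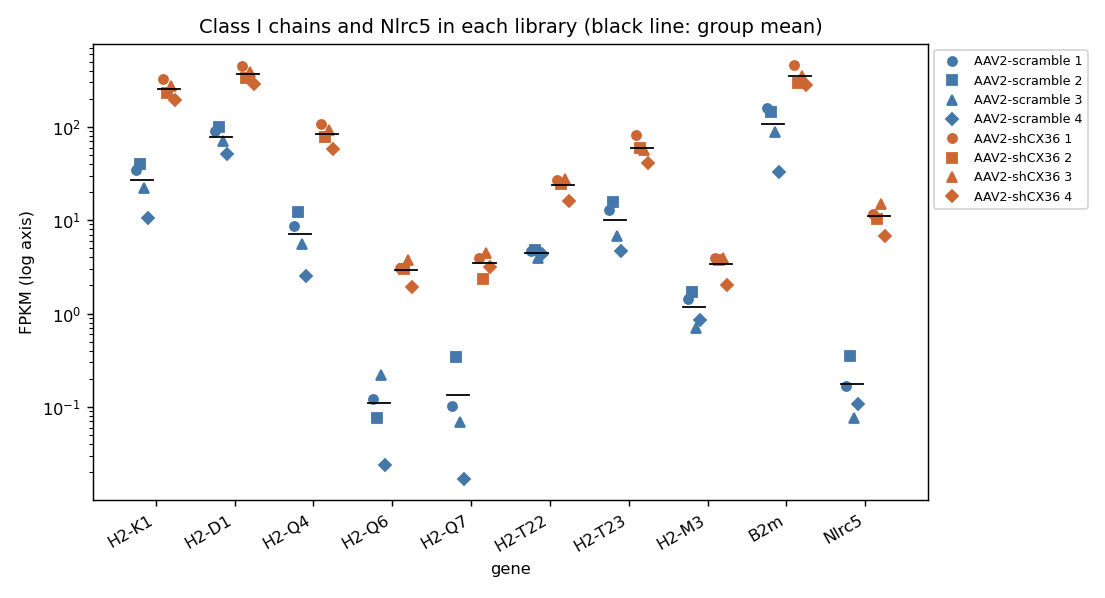
FPKM of the 10 members in each library (log axis), with blue for AAV2-scramble, orange for AAV2-shCX36, 1 marker shape per replicate number and a black line at each group mean. The groups of every gene are separate, by 1.19 times for H2-M3 and 19.3 times for Nlrc5 between the nearest libraries.

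In all, 10 of 10 members had every AAV2-shCX36 library above every control, where 8.85% of the 12858 genes averaging 1 FPKM or more did. All 10 were past an adjusted p of 0.05 as higher in limma, where 2.24% of genes tested were. Since this contrast chose the members, neither count is evidence about them. Of the 10, H2-Q6, H2-Q7 and Nlrc5 had control means under 1 FPKM and entered the fit only through their AAV2-shCX36 level. The median log2 difference of the 10 was 2.20, with a range of 1.02 to 3.50, and that of all genes tested was 0.01.

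The order of levels was largely shared by the groups. In AAV2-shCX36 it ran H2-D1, B2m, H2-K1, H2-Q4, H2-T23, H2-T22, Nlrc5, H2-Q7, H2-M3, H2-Q6 by mean FPKM. Neighbours H2-D1 and B2m, B2m and H2-K1, H2-Q4 and H2-T23, H2-Q7 and H2-M3, and H2-M3 and H2-Q6 had overlapping ranges. The other neighbours had separate ranges. In controls B2m came first, Nlrc5 fell behind H2-M3, and H2-Q7 and H2-Q6 came last. Nlrc5, the regulator, was thus at the level of the rarest heavy chains in controls and above H2-M3, H2-Q6 and H2-Q7 in 4 of 4 AAV2-shCX36 libraries.

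The make-up of the heavy chain pool differed between the groups and was tighter in AAV2-shCX36. The FPKM of the 8 heavy chains summed to 152, 174, 109 and 73.7 in AAV2-scramble 1 to 4 and to 997, 737, 850 and 605 in AAV2-shCX36 1 to 4. H2-K1 made up 22.5, 23.2, 20.1 and 14.3% of that sum in controls and 32.4, 31.5, 32.0 and 32.1% in AAV2-shCX36, whereas H2-D1 made up 62.3 ± 5.40% and 45.9 ± 1.21% (SD, n = 4 each). The ratio of H2-K1 to H2-D1 was 0.208 to 0.408 in controls and 0.674 to 0.723 in AAV2-shCX36. H2-Q4 held 5.27 ± 1.48% in controls and 10.4 ± 0.538% in AAV2-shCX36, while the share of H2-T23 was 7.52 ± 1.49% and 7.44 ± 0.819%. These shares were computed from the values that chose the members, so no test is given.

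Heavy chain transcript per light chain transcript also varied. The heavy chain sum divided by B2m was 0.952, 1.21, 1.23 and 2.24 in AAV2-scramble 1 to 4 and 2.15, 2.48, 2.44 and 2.16 in AAV2-shCX36 1 to 4. Control library 4 lay among the AAV2-shCX36 libraries, so the groups overlapped in this ratio although they did not in either of its parts.

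**Figure D3:**
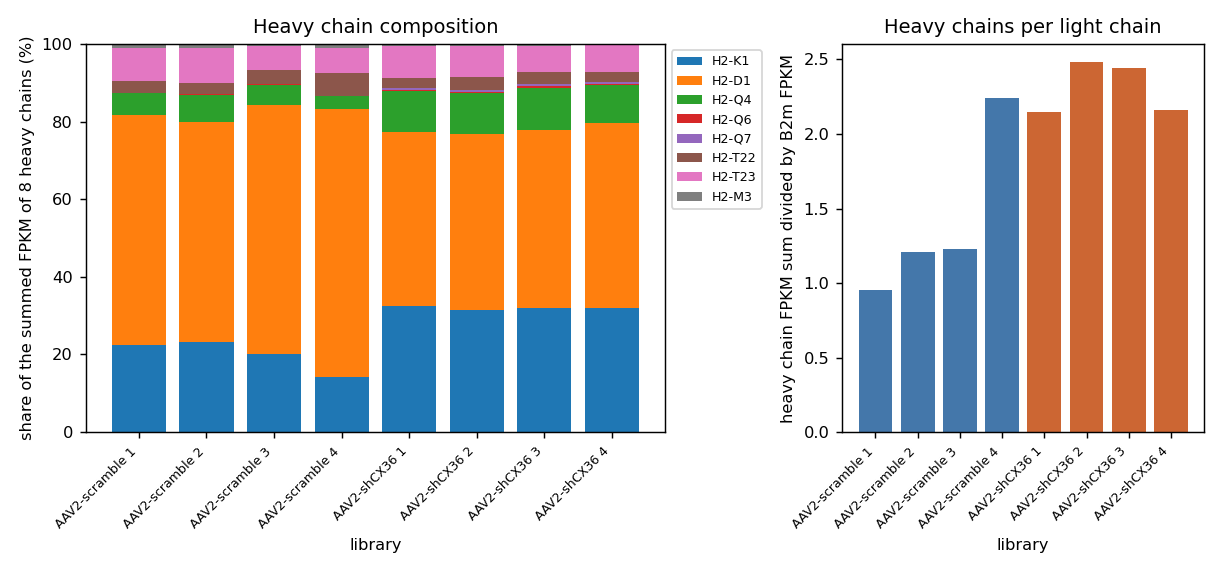
Left, the share of each heavy chain in the summed FPKM of the 8 heavy chains (percent, stacked bars) in each library; right, that sum divided by the B2m FPKM (blue AAV2-scramble, orange AAV2-shCX36). H2-K1 holds 31.5 to 32.4% in AAV2-shCX36 and 14.3 to 23.2% in controls, and the ratio of 2.24 in AAV2-scramble 4 lies within the AAV2-shCX36 values.

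Control libraries differed widely in class I level, and cell type markers differed with them. AAV2-scramble 2 was the highest control for 8 of the 10 members and AAV2-scramble 4 the lowest for 7. The summed level of 8 microglia markers was 839, 789, 424 and 186 FPKM in AAV2-scramble 1 to 4, the same order of libraries as B2m. The summed level of 6 endothelial markers was 89.0, 113, 33.4 and 22.5 FPKM, the same order as H2-K1, H2-D1, H2-Q4, H2-Q7 and H2-T23. Oligodendrocyte markers summed to 52.0 and 160 FPKM in AAV2-scramble 1 and 2 and to 11.2 and 11.5 in AAV2-scramble 3 and 4. Monocyte and neutrophil markers summed to 49.8, 50.3, 28.3 and 28.5 FPKM in AAV2-scramble 1 to 4. Both of these lists had the same order as H2-T22, H2-M3 and Nlrc5. Other lists ran the opposite way over AAV2-scramble 1 to 4. Ganglion cell markers summed to 1782, 1356, 2097 and 2343 FPKM, rod markers to 1158, 1391, 1693 and 1724, and lens markers to 0.724, 0.636, 4.59 and 15.4. Müller glia markers followed neither order, at 558, 736, 436 and 567 FPKM. In bulk RNA, more cells of a type and more RNA per cell cannot be told apart, and the part of these cells in the control class I level was not tested.

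In the AAV2-shCX36 libraries this order did not recur. AAV2-shCX36 4 was the lowest of its group for 9 of 10 members. It had the highest microglia marker sum, 345 FPKM against 222, 224 and 220 in libraries 1 to 3. Its endothelial sum was also the highest, 108 FPKM against 71.7, 58.0 and 55.4. Libraries 1 and 3 were the highest for 5 members each. The sums in AAV2-shCX36 lay inside the control range for both lists, 220 to 345 within 186 to 839 FPKM for microglia and 55.4 to 108 within 22.5 to 113 FPKM for endothelium. For microglia only AAV2-scramble 4, at 186 FPKM, lay below the AAV2-shCX36 sums, and AAV2-scramble 1 to 3 lay above them at 839, 789 and 424 FPKM. All 8 microglia markers had a log2 difference below 0, with a median of -1.14, and the median of the 6 endothelial markers was 0.34. Of the 8 microglia markers, P2ry12 was lower at an adjusted p under 0.05 and none was higher (limma; 2.52% of genes tested were lower). A marker sum mixes cell number with RNA per cell, and the part of these cells in the class I difference was not tested.

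**Figure D4:**
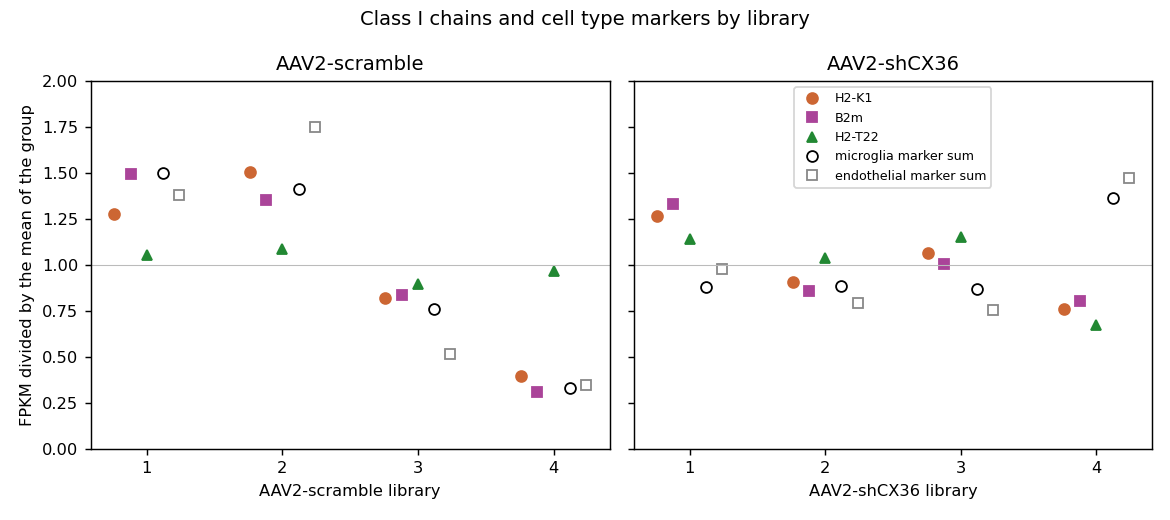
H2-K1, B2m and H2-T22 and the summed microglia and endothelial markers (open symbols) in each library, each divided by the mean of its group (y axis), with controls at left and AAV2-shCX36 at right. In controls H2-K1, B2m and both marker sums are high in libraries 1 and 2 and low in 4 while H2-T22 stays level, and in AAV2-shCX36 the marker sums are highest in library 4, where the class I chains are low.

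Against either pair of controls each member was higher in AAV2-shCX36. This direction was fixed in advance, because every AAV2-shCX36 library stood above every control for all 10 members. It therefore says nothing of the cell content of the controls, and the sizes are given as a description. Without AAV2-scramble 1 and 2, which hold the most microglial and oligodendrocyte transcript, the log2 differences were 3.95 for H2-K1, 2.57 for H2-D1, 2.63 for B2m, 3.16 for H2-T23 and 3.41 for Nlrc5. Without AAV2-scramble 3 and 4 they were 2.72, 1.92, 1.16, 1.95 and 3.21. H2-Q4 had 4.12 and 2.88, and H2-T22, the steadiest member in controls, 2.24 and 2.08. The control levels of H2-Q6, H2-Q7 and Nlrc5 are so far below the pseudocount of 1 that their differences on this scale can hardly move with the choice of controls.

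Markers of lymphocytes were scarce. They had higher sums in AAV2-shCX36 for T and natural killer cells, while B cell sums overlapped, at 0.229 to 0.884 FPKM in controls and 0.0879 to 1.11 in AAV2-shCX36. The 6 T cell markers in the table summed to 0.475 to 0.952 FPKM in controls and 1.92 to 2.83 in AAV2-shCX36, and Cd3e, Cd3d and Cd3g were listed at 0 in every control and at up to 0.442 FPKM in AAV2-shCX36. The 6 natural killer markers summed to 0 to 0.341 FPKM in controls and 1.35 to 5.08 in AAV2-shCX36, with 4 of them listed at 0 in every control. Of single markers on these lists, Cd4, Cd8a and Klrb1c overlapped between the groups. Ly6c2, a monocyte gene, stood at 0.0284, 0.151, 0.0285 and 0 FPKM in controls and at 4.20, 1.90, 3.57 and 2.22 in AAV2-shCX36. The monocyte and neutrophil list as a whole ranged from 28.3 to 50.3 FPKM in controls and 27.5 to 40.6 in AAV2-shCX36, most of it Lyz2. Lens markers summed to 149 and 322 FPKM in AAV2-shCX36 1 and 4, to 13.6 and 21.2 in 2 and 3, and to 0.636 to 15.4 in controls. The part of any of these cells in the class I difference was not tested.

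Because class I genes arose by duplication, fragments can fit more than 1 of them. Coding sequences of the heavy chains (GENCODE M21, longest coding transcript) were identical at 95.4% of aligned bases for H2-Q6 and H2-Q7, 91.4% for H2-K1 and H2-D1, and 71.4% for H2-T22 and H2-M3, the least alike pair. Among stretches of 150 bases, the read length, 11.6% of those in H2-Q7 and 5.99% of those in H2-Q6 also occur in a transcript of another gene, mainly each other, and 8.39% of those in H2-Q4 occur in Gm11131. The share was 1.79% for H2-D1, under 1% for H2-T22 (0.931%) and H2-T23 (0.831%), and 0 for H2-K1, H2-M3, B2m and Nlrc5. No label states how shared fragments were assigned. The split between H2-Q6, H2-Q7 and other Q genes is uncertain, and so is the level of H2-Q4. H2-Q9, a close relative of H2-Q7 with no GENCODE M21 transcript, was not in this search.

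Of 20 other class I heavy chain symbols of the H2 complex listed, 7 were in the table and 3 reached a mean of 1 FPKM. H2-Q9 stood at 0.0513, 0.0362, 0 and 0 FPKM in AAV2-scramble 1 to 4 and 3.29, 2.56, 2.72 and 1.68 FPKM in AAV2-shCX36 1 to 4 (5 against 593 fragments in all). Like H2-Q6 and H2-Q7 it entered the fit only through its AAV2-shCX36 level, so its call there is not read as a result. H2-T24 (1.29 ± 0.809 against 1.86 ± 0.338 FPKM, adjusted p = 0.379 in limma) and H2-M5 (1.54 ± 0.519 against 0.925 ± 0.199 FPKM, adjusted p = 0.190 in limma) were not past the threshold, and their groups overlapped. The class I-like chains outside the complex had 3 tested genes and no call. Fcgrt, which carries antibodies and also pairs with B2m, stood at 9.53, 10.7, 3.36 and 1.80 FPKM in controls and 6.94, 5.41, 5.39 and 10.2 FPKM in AAV2-shCX36 (log2 difference 0.32 ± 0.44 SE, adjusted p = 0.704 in limma). Mr1 and Hfe, which also need B2m, had log2 differences of -0.10 and 0.06.

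Genes that supply and load peptides were mostly higher. Of 13 tested, 10 were higher and none lower in limma at an adjusted p under 0.05, where 2.24% of all genes tested were higher and 2.52% lower. The median log2 difference of the 13 was 1.21, and that of all genes 0.01. The Tap1 and Psmb9 genes, the peptide pump and an immunoproteasome subunit, rose to 52.9 ± 15.8 FPKM from 2.67 ± 0.705 and to 23 ± 5.03 from 2.24 ± 1.14 (SD, n = 4 each; adjusted p = 0.000219 and 0.00113 in limma). Psmb8 and Psme1, another immunoproteasome subunit and a proteasome activator subunit, rose by log2 2.67 ± 0.28 and 0.86 ± 0.09 (SE; adjusted p = 0.00215 and 0.00238 in limma). The 3 general chaperones of the endoplasmic reticulum on the list were not past the threshold, with log2 differences of -0.12 for Calr, 0.05 for Canx and -0.03 for Pdia3 (adjusted p = 0.639, 0.664 and 0.915 in limma). These chaperones serve glycoproteins in general.

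None of 8 RFX, CREB/ATF and NF-Y genes, the factors that meet Nlrc5 on the promoter, was past the threshold in either direction, with a median of -0.08. Rfx5 stood at 7.04, 7.12, 5.57 and 5.01 FPKM in controls and 6.32, 6.13, 5.83 and 5.96 in AAV2-shCX36. Nfyc had the smallest p of the 8, at 8.10 ± 0.522 FPKM against 9.20 ± 0.408 (adjusted p = 0.195 in limma). Of 7 interferon and NF-kB factors 4 rose and none fell, against 2.24% and 2.52% of all genes tested, and their median log2 difference was 1.43. Irf1, an interferon-induced factor that binds class I promoters, rose to 15.1 ± 4.53 FPKM from 2.59 ± 1.36 (adjusted p = 0.00661 in limma). Irf9 and Stat2, parts of the interferon-stimulated gene factor complex, rose by log2 1.75 and 1.43, whereas Rela and Nfkb1, the NF-kB subunits, had log2 differences of -0.09 and -0.31 (adjusted p = 0.843 and 0.289 in limma).

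Relatives and receptors were mostly too scarce to test. Of 10 relatives of Nlrc5, the NLR family of cytosolic sensors, 1, Nod1, reached a mean of 1 FPKM (1.04 ± 0.740 against 1.77 ± 0.336 FPKM, adjusted p = 0.260 in limma). Ciita, the relative that switches on class II genes, stood at 0.0269, 0.0969, 0.0486 and 0.116 FPKM in controls and 0.950, 0.280, 0.420 and 0.343 FPKM in AAV2-shCX36, below the filter. Of 10 genes measured on the list of class I receptors, 2 were tested. Lilrb4a, an inhibitory receptor of myeloid cells whose binding of class I is not shown here, rose to 7.05 ± 0.996 FPKM from 2.50 ± 1.30 (adjusted p = 0.0368 in limma). That call held in 2 of the 8 fits that each leave out 1 library, those without AAV2-scramble 3 or 4. Pirb, the inhibitory receptor that binds class I on myeloid cells and neurons, stood at 1.68, 2.45, 1.37 and 0.553 FPKM in controls and 1.20, 0.603, 0.445 and 1.22 FPKM in AAV2-shCX36 (adjusted p = 0.375 in limma).

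**Figure D5:**
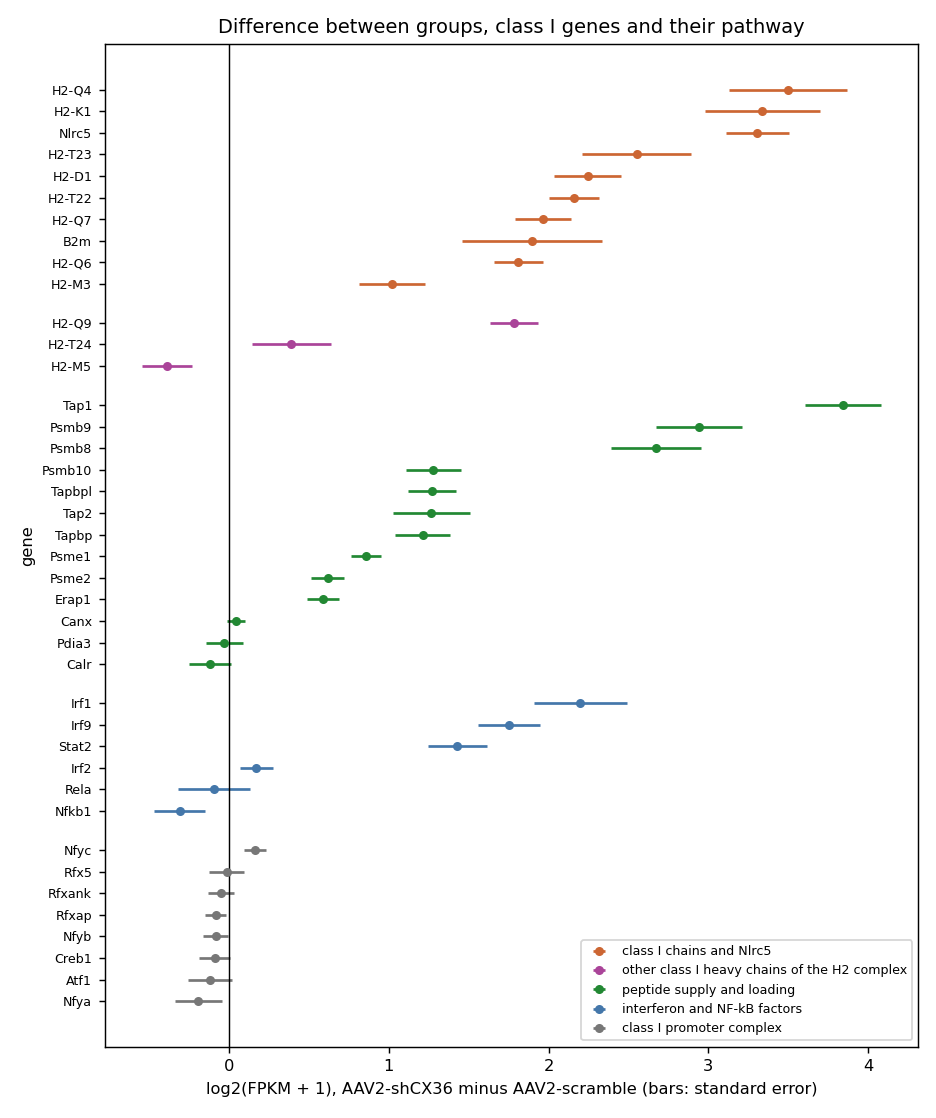
Log2(FPKM + 1) difference, AAV2-shCX36 minus AAV2-scramble (x axis; points are estimates and bars standard errors, n = 4 each), for the 10 members and genes of 4 pathway lists, 1 row per gene. The members lie between 1.02 and 3.50, the interferon-linked loading genes and factors also lie to the right, and the class I promoter complex lies around -0.08.

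Genes whose pattern over the 8 libraries came nearest to the mean pattern of the members were sought among non-members. Likeness was the root-mean-square difference of centred log2(FPKM + 1) over the 8 libraries, whose median over all genes tested was 1.232. Near the members lay Trim21 (0.158), Usp18 (0.169), Parp10 (0.169), Irf1 (0.193), Psmb8 (0.229), Irf7 (0.245) and Cd274 (0.250). Trim21 encodes a cytosolic antibody receptor, Usp18 removes ISG15 from proteins, and Cd274 encodes PD-L1. Among the members H2-D1 lay nearest to their mean at 0.081 and H2-M3 farthest at 0.702. Each non-member named here had its lowest AAV2-shCX36 value in library 4, as did 9 of the 10 members. The member mean pattern that picked these genes is itself lowest there in its group, so this is not a separate likeness. The measure is dominated by the difference between groups and says nothing of control.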

How the data were processed

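The authors deposited FPKM values for 24860 gene symbols in 8 retina libraries, sequenced as 150 base paired reads per the labels' protocols. Per the submitters' processing notes, fastp, HISAT2, HTSeq, R 3.2.0 and DESeq2 were used, with builds GRCm38 and mm10. The strand setting, annotation and treatment of multiply mapped fragments are not given in the sources used here. Columns were matched to samples by title, with 0 unmatched columns. Groups and replicate numbers come from titles.

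No counts were used, so log2(FPKM + 1) of the 12858 genes averaging 1 FPKM or more was fitted with limma 3.58.1 (R 4.3.3; eBayes with trend) and p-values were adjusted by Benjamini-Hochberg over these genes. The fit was tested on simulated data. Members and lists were chosen with earlier results of these data known. Named genes were the members, Gjd2, up to 4 called genes and up to 2 others with a needed level per list, and the 8 nearest in pattern. Pdia3, Hfe, the scarce heavy chains H2-Q1, H2-Q2, H2-Q10 and H2-M2, and the cell type marker genes were named beyond that rule, after their values were seen. An item covered by the naming rule is not reported here. Depth was estimated from the modal ratio of low values and from 652 single-exon genes. Sequences are RefSeq (GRCm38.p6) and GENCODE M21. Python 3.11.15, pandas 2.3.3, Biopython 1.88 and matplotlib 3.10.9 were used. Alternatives were other pseudocounts, filters, scalings and variance models, library weights, a replicate block, and libraries left out.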

Additional observations from a re-analysis of the deposited data

Results flagged for a closer look

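H2-M3 stood apart in AAV2-shCX36 4, at 2.04 FPKM against 3.76 to 3.93 in the other 3 libraries of its group and a gap of 0.909 of the group's range, past the 95% critical value of Dixon's test for 4 samples. Of 26 such group checks on the members, Gjd2 and the heavy chain sums this was the only one past the limit, and chance alone passes about 1 in 20.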

How the results depend on the processing

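Every tested member was higher in AAV2-shCX36 under every alternative run (10 of 10, or 7 of 7 with a mean of at least 5 FPKM), and 7 to 10 were past an adjusted p of 0.05 in limma. The members were chosen from this contrast and their groups did not overlap, so their direction could not change when libraries were left out. Neither count is evidence about the members. Their median log2 difference was 3.04 with a pseudocount of 0.1 and 2.84 after rescaling to TPM, and 2.11 to 2.34 when 1 library was left out. Counts over all genes were less steady. Genes called higher, 288 in the report, were 177 without a filter, 68 without AAV2-shCX36 1 and 4, 565 without AAV2-scramble 1 and 2, and reached 1542 without AAV2-scramble 3 and 4. Leaving out 1 library gave 96 (AAV2-shCX36 1) to 575 (AAV2-scramble 4). Genes called lower, 324 in the report, were 134 without a filter, 28 without AAV2-shCX36 1 and 4, and 1914 without AAV2-scramble 3 and 4. Leaving out 1 library gave 70 (AAV2-shCX36 2) to 591 (AAV2-scramble 4).

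With the replicate number as a block, 107 genes were higher and 57 lower, and 0 receptors were higher. Deviations of same-numbered libraries correlated at 0.13, -0.30, 0.23 and -0.27, and those of differently numbered libraries at -0.24 to 0.27. These values do not set the numbered pairs apart, and they cannot tell whether libraries were handled in pairs.

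Gjd2 had log2 differences of -0.19 (exact permutation p = 0.133) without AAV2-scramble 1 and 2, -1.21 (exact p = 0.0667) without AAV2-scramble 3 and 4, -0.81 (exact p = 0.133) without AAV2-shCX36 1 and 4, and -0.88 to -0.51 with 1 library left out. Gjd2 under quantile normalization was not run.

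Among the lists, receptors higher were 0 with a pseudocount of 0.1, without a filter, with a mean of at least 5 FPKM and without AAV2-shCX36 1 and 4, and 0 to 1 with 1 library left out. Other class I heavy chains higher were 0 with a mean of at least 5 FPKM, 0 without AAV2-shCX36 1 and 4, and 2 without AAV2-scramble 1 and 2. Without AAV2-scramble 1 and 2, NLR relatives higher and class I-like chains higher were 1 each. Without AAV2-scramble 3 and 4, interferon and NF-kB factors lower were 2, and genes lower were 1 each for NLR relatives, the class I promoter complex, other class I heavy chains, peptide supply and receptors. H2-Q9 and Lilrb4a, the genes called on the heavy chain and receptor lists, were below the filter of 5 FPKM and left that fit. H2-Q9 also fell below the filter without AAV2-shCX36 1 and 4. The cause of the other changes was not tested. Depth limits H2-Q6, H2-Q7 and H2-Q9, whose control levels rest on 18, 30 and 5 fragments if the smallest common step is 1 fragment.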

Other observations

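A further 4 heavy chain genes of the complex lay below a mean of 1 FPKM and entered no comparison. H2-Q2 stood at 0.220, 0.0411, 0.260 and 0.404 FPKM in AAV2-scramble 1 to 4 and 0.594, 0.969, 1.45 and 0.602 FPKM in AAV2-shCX36 1 to 4. H2-Q10 reached 1.28 FPKM in AAV2-shCX36 1 and at most 0.208 FPKM in any other library. H2-M2 ranged from 0 to 0.496 FPKM in controls and 0.0372 to 0.906 FPKM in AAV2-shCX36, and H2-Q1 stayed at or under 0.0913 FPKM in the 8 libraries.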
